A study of Mus musculus with 2 samples.

Results

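T cells were identified among spleen cells that had been sorted for the myeloid surface proteins CD11b and Gr1 and profiled by single-cell RNA sequencing. Of 14641 cells kept from both libraries, 231 met the rule for a T cell, 166 of 9150 in the PyMT library and 65 of 5491 in the WT library. A cell was counted as a T cell if it held at least 2 UMIs (unique molecular identifiers, each standing for 1 captured transcript) of Cd3e, Cd3g, Cd5, Lef1 and Bcl11b together. It also had to hold fewer than 2 UMIs of the B cell genes Cd79a, Cd79b and Ms4a1, fewer than 2 of the NK cell genes Ncr1, Klre1 and Klrb1c, and fewer than 2 of the monocyte genes Csf1r and Ccr2. Cd3d was left out of the rule because neutrophils of these libraries carried it. T cells were then split at 5% of UMIs in the neutrophil transcripts S100a8 and S100a9, and by any UMI of Cd4 or of Cd8a or Cd8b1. The cells were thus chosen by and split on their UMI counts of these transcripts, whose levels are given as descriptions.

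The PyMT library pooled the spleens of 3 mice with tumours. These mice carry the polyoma middle T antigen, an oncogene that drives mammary tumours, and the labels give their strain as PYMT only. The WT library pooled the spleens of 5 wild-type FVB/n mice. Red cells had been lysed, Fc receptors blocked, and live cells sorted by fluorescence after staining for CD45, CD11b, Gr1, CD84 and Jaml. With 1 library of pooled spleens for each condition, differences between the libraries have no replicate check. All 95% intervals given here are exact and cover counting error only.

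T cells read peptides held by MHC molecules through an antigen receptor that signals through the CD3 chains. Helper and regulatory T cells carry the coreceptor CD4 and respond to MHC class II, while cytotoxic T cells carry CD8 and respond to MHC class I. Naive T cells circulate between blood, spleen and lymph nodes and depend on interleukin-7 and on Bcl2 family proteins for survival. Resting T cells are not known for CD11b, the integrin alpha chain encoded by Itgam, although Ly6C, which anti-Gr1 antibodies can also bind, is found on part of the CD8 cells.

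The PyMT library held 9155 cells and 73435307 UMIs and the WT library 5491 cells and 42542700 UMIs, and 5 PyMT cells failed the quality limits. The libraries shared 72 cell barcodes, which belonged to 2 of the PyMT and 1 of the WT T cells. The lowest UMI total of any cell was 2502 in the PyMT file and 2752 in the WT file. T cells under 5% S100, called S100-low below, had a median of 3436 UMIs in PyMT and 3477.5 in WT, close to those limits. Of them, 47 of 135 PyMT cells (34.8%) and 26 of 54 WT cells (48.1%) lay no more than 25% above the lowest total. Cells with less RNA than that are not in the files, and the cells had passed a CD11b and Gr1 gate, so the T cell shares describe this sort and not the spleen. T cells were 1.81% of PyMT cells (95% Clopper-Pearson interval 1.55 to 2.11) and 1.18% of WT cells (0.915 to 1.51).

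The rule turned away some cells with T cell transcripts. At least 2 T cell UMIs were present in 198 PyMT and 90 WT cells, and 32 PyMT and 25 WT cells were left out for other transcripts. The reason was B cell genes in 15 PyMT and 12 WT cells, NK cell genes in 9 PyMT and 4 WT cells, and monocyte genes in 10 PyMT and 14 WT cells, with more than 1 reason in 2 PyMT and 5 WT cells.

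The S100-low cells carried T cell transcripts that the rule did not use. Over 22 such genes, among them the receptor chain gene Cd247 and the transcription factor gene Tcf7, these cells held 3554 CPM (UMIs in every 1000000 UMIs of the summed cells) in PyMT and 2876 CPM in WT. Neutrophils held 78.4 CPM in PyMT and 125 CPM in WT. Every S100-low T cell had at least 1 UMI of these genes. Lck, the kinase that starts receptor signalling, was present in 71.1% of PyMT and 68.5% of WT S100-low T cells. Cd2, an adhesion receptor, was present in 61.5% of PyMT and 63.0% of WT cells, and Gimap4, a GTPase of lymphocytes, in 63.0% of PyMT and 53.7% of WT cells. Il7r, the interleukin-7 receptor alpha chain, was found in 53.3% of PyMT and 55.6% of WT cells, against 0.12% of PyMT and 0.08% of WT neutrophils, whose median depth was 8069 UMIs in PyMT and 5409 UMIs in WT.

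The genes that chose the cells lie on several chromosomes. In GRCm38 with the GENCODE M21 annotation, Cd3e spans 44998740 to 45009627 and Cd3g 44969572 to 44980431, both on the minus strand of chromosome 9. Lef1, a transcription factor of early and naive T cells, spans 131110471 to 131224356 on the plus strand of chromosome 3. Cd3g was present in 94.8% of PyMT and 100% of WT S100-low T cells, and Cd3e in 80.7% of PyMT and 68.5% of WT cells. Among neutrophils, Cd3g was present in 1.11% of PyMT and 2.24% of WT cells and Cd3e in 0.35% of PyMT and 0.06% of WT cells. Cd3e, Cd3g or both were present in 133 of 135 PyMT and 54 of 54 WT S100-low cells. Cd3d, another CD3 chain gene, reached 822 CPM in PyMT and 899 CPM in WT S100-low T cells, but also 228 CPM in PyMT and 402 CPM in WT neutrophils.

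The threshold of 2 T cell UMIs separated the cells unevenly. Among S100-low cells with 1 such UMI that passed the other limits, 3 PyMT cells held 166 CPM and 4 WT cells held 1031 CPM of the 22 T cell genes outside the rule. Just inside it, at 2 UMIs, the 1 PyMT cell held 174 CPM and the 2 WT cells held 2287 CPM. At 3 UMIs, 6 PyMT cells held 3920 CPM and 8 WT cells 2693 CPM. Around the S100 split, the highest share below 5% was 3.64% in PyMT and 4.49% in WT, and the lowest above it 5.26% in PyMT and 18.9% in WT. In PyMT 12 T cells lay between 2.5% and 10% S100, on both sides of the split and with no clear gap, and in WT 1 did.

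3 of the S100-low T cells stood apart by size. A PyMT cell of 30343 UMIs, placed with the CD8 cells, carried 1207 UMIs of the neutrophil granule genes Elane, Mpo and Prtn3, nearly all of the 1208 such UMIs of the PyMT S100-low T cells. It had 6 UMIs of Cd3g and none of Cd3d or Cd3e. A PyMT cell of 17241 UMIs with neither coreceptor carried 288 UMIs of Cd74, 209 of H2-Aa and 159 of H2-Ab1, the MHC class II genes of antigen-presenting cells, with 1 UMI of Cd3g. Together these 2 cells gave 5.74% and 3.26% of the UMIs summed over PyMT S100-low T cells, and their transcripts went against the T cell label. A WT cell of 11315 UMIs held 332 of the 693 cell-cycle UMIs of the WT S100-low T cells, with 7 UMIs of Cd3d, 3 of Cd3e and 6 of Cd3g. Results between the libraries are therefore given with all cells and, where the value moved, without the 2 PyMT cells over 15000 UMIs or without the WT cell. Without the WT cell 339 genes were higher in PyMT and 49 lower, by the 1.5-fold rule described below.

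**Figure D1:**
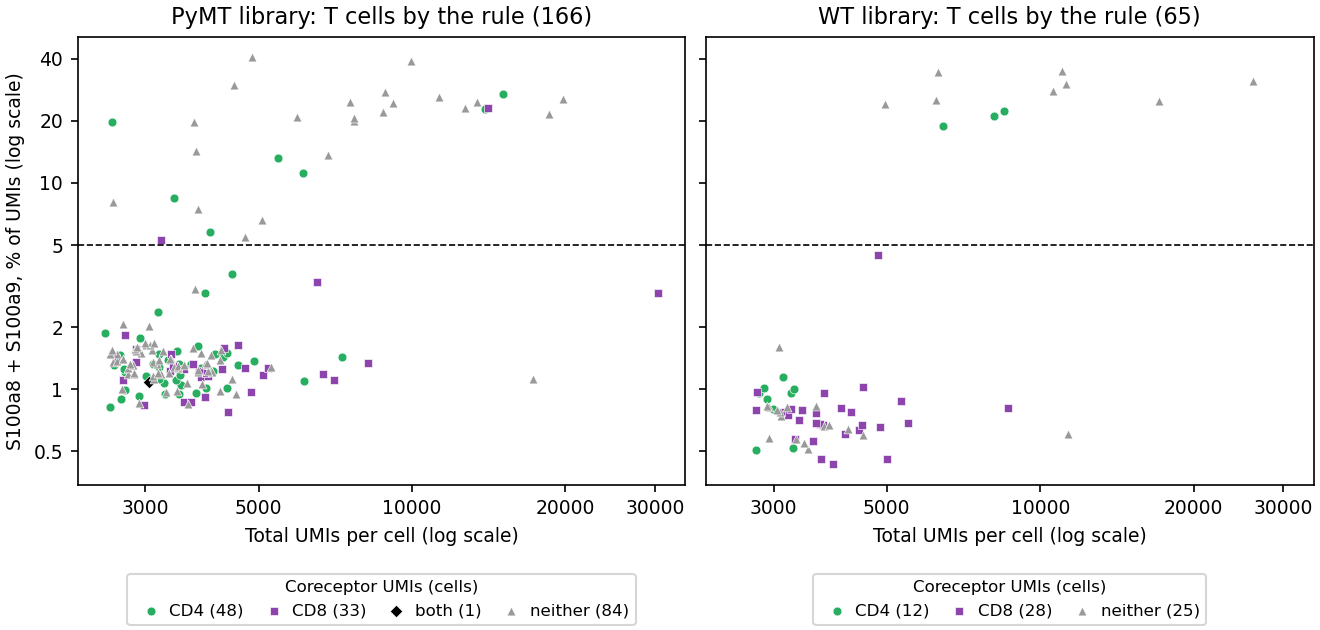
Each point is 1 T cell, with its total UMIs (log scale) on the horizontal axis and its percent of UMIs in S100a8 and S100a9 (log scale) on the vertical axis, for PyMT (166 cells) and WT (65 cells); symbols give the coreceptor class and the dashed line the split at 5%. S100-low cells gather near the lower limit of the files' UMI totals, apart from the PyMT cells of 30343 and 17241 UMIs and the WT cell of 11315 UMIs.

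T cells at or above 5% S100, called S100-high, combined T cell transcripts with a neutrophil profile. They numbered 31 of 166 T cells in PyMT (18.7%, 95% interval 13.1 to 25.4) and 11 of 65 in WT (16.9%, 8.76 to 28.3). Of the WT cells 5 had no more than the 2 T cell UMIs the rule asks for, and at 3 UMIs the share was 16.8% in PyMT and 10.3% in WT. Their median was 6830 UMIs in PyMT and 8474 UMIs in WT, about the depth of neutrophils or above it. Each S100-high PyMT cell held on average 11.7 UMIs of the 22 T cell genes, against 13.9 in S100-low T cells and 0.666 in neutrophils. In WT the averages were 6.82 UMIs in S100-high cells, 11.1 in S100-low T cells and 0.844 in neutrophils. The T cell content per cell was thus near that of an S100-low T cell in PyMT and lower in WT.

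The same S100-high cells held an average of 796 UMIs of 21 further neutrophil genes in PyMT and 1817 in WT. S100-low T cells held 27.9 of these UMIs in PyMT and 19.4 in WT, and neutrophils 1446 in PyMT and 1442 in WT. Ribosomal protein UMIs, which are abundant in lymphocytes, averaged 1307 per S100-high cell in PyMT, against 1640 in S100-low T cells and 318 in neutrophils of that library. The S100-high cells also followed the neutrophils of their own library in a set of 11 transcripts that differ between PyMT and WT neutrophils. This set was picked on these same libraries, so its values are a description. It averaged 93.3 UMIs per S100-high cell in PyMT and 7.55 in WT, beside 87.1 in PyMT and 1.85 in WT neutrophils. The WT mean rests on 1 cell with 65 of these UMIs, and the median was 89 in PyMT and 2 in WT S100-high cells. Wfdc17, a whey acidic protein family gene of activated myeloid cells, stood at 5837 CPM in PyMT and 17.2 CPM in WT S100-high cells.

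Scoring against simulated doublets, which are sums of random pairs of cells, marked 15 of 31 PyMT (48.4%) and 4 of 11 WT (36.4%) S100-high cells and none of the S100-low T cells of either library. The median score was 0.794 in PyMT and 0.788 in WT S100-high cells, 0.0147 in PyMT and 0.0962 in WT S100-low T cells, and 0.368 in PyMT and 0.423 in WT neutrophils. Whether droplets with a pair of cells account for the S100-high cells was not tested. Cd4 alone was seen in 7 PyMT and 3 WT S100-high cells, Cd8a or Cd8b1 alone in 2 PyMT and 0 WT cells, and neither in 22 PyMT and 8 WT cells. The comparisons below use S100-low T cells only.

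**Figure D2:**
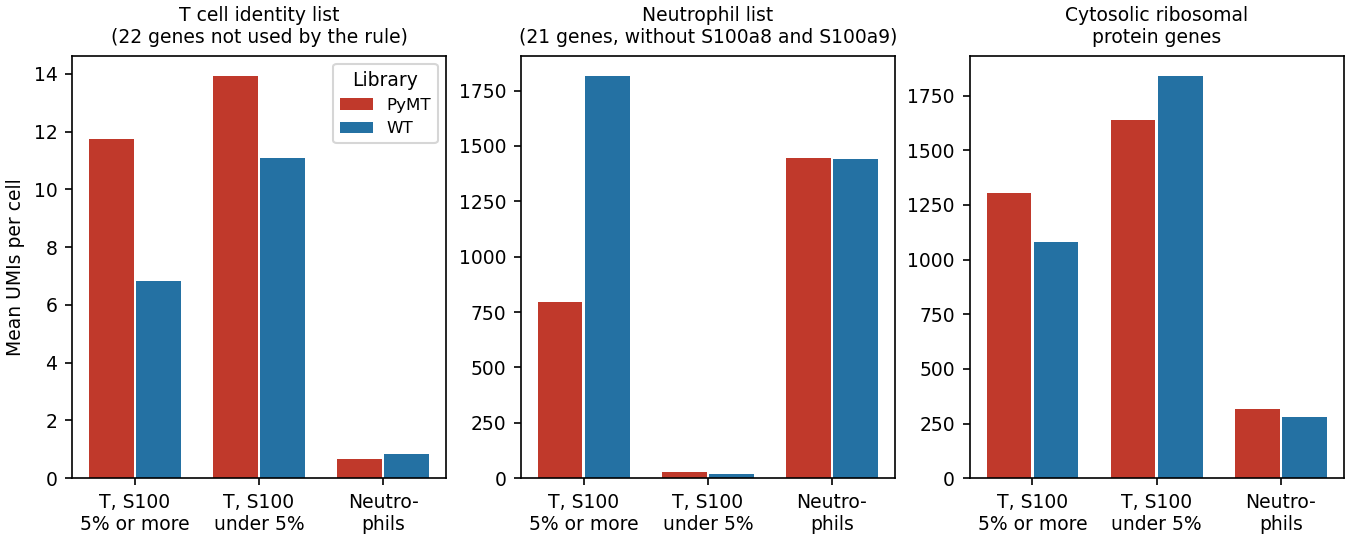
Bars are mean UMIs per cell of 22 T cell identity genes, 21 neutrophil genes and the cytosolic ribosomal protein genes in S100-high T cells, S100-low T cells and neutrophils, for PyMT and WT. S100-high cells averaged 11.7 identity UMIs in PyMT and 6.82 in WT, and 796 neutrophil UMIs in PyMT and 1817 in WT, so that they held both kinds of transcript.

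The S100-low T cells held the usual coreceptor classes, in different proportions in PyMT and WT. Cd4 is on the minus strand of chromosome 6 at 124864692 to 124888221, and Cd8b1 and Cd8a neighbour each other on its plus strand at 71322788 to 71337494 and 71373427 to 71379173 (GRCm38). In PyMT, 41 of 135 cells had Cd4 only (30.4%, 95% interval 22.8 to 38.9), 31 had Cd8a or Cd8b1 only (23%, 16.2 to 31.0), 62 had neither (45.9%, 37.3 to 54.7) and 1 had both. In WT, 9 of 54 cells had Cd4 only (16.7%, 7.92 to 29.3), 28 had Cd8a or Cd8b1 only (51.9%, 37.8 to 65.7), 17 had neither (31.5%, 19.5 to 45.6) and none had both. The intervals of the CD8 class did not overlap between the libraries.

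Among cells with a single coreceptor, CD4 cells were 56.9% in PyMT (41 of 72, 44.7 to 68.6) and 24.3% in WT (9 of 37, 11.8 to 41.2). With every cell thinned to 2500 UMIs these shares were 54.7% in PyMT (35 of 64) and 23.5% in WT (8 of 34). Cd4 was present in 0.12% of PyMT and 0.08% of WT neutrophils, and Cd8b1 in 0.10% of PyMT and 0.06% of WT neutrophils. Median depth was 3452 UMIs for CD4, 3930 for CD8 and 3199.5 for coreceptor-negative cells in PyMT, and 2990 for CD4, 3752.5 for CD8 and 3316 for coreceptor-negative cells in WT. The class without either coreceptor includes cells whose Cd4 or Cd8 transcripts were not captured. Whether the sort gate took the classes at the same rate in both libraries was not tested.

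**Figure D3:**
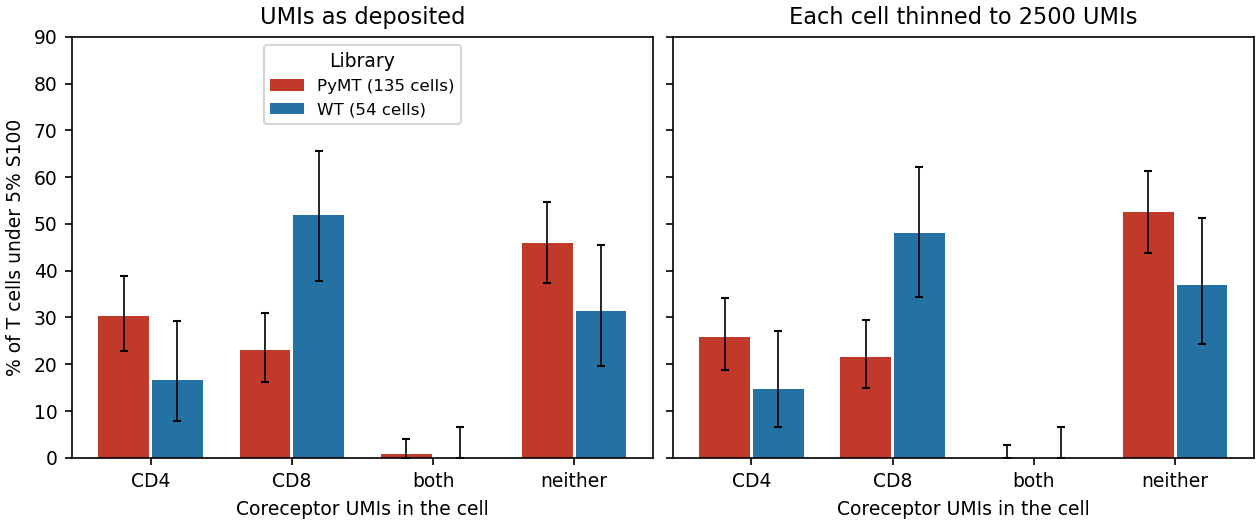
Bars are the percent of S100-low T cells with Cd4, CD8, both or neither in PyMT (135 cells) and WT (54 cells), with the UMIs as deposited on the left and each cell thinned to 2500 UMIs on the right; error bars are exact 95% binomial intervals. As deposited, CD4 cells were 30.4% in PyMT and 16.7% in WT, and CD8 cells 23% in PyMT and 51.9% in WT.

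PyMT S100-low T cells were compared with WT S100-low T cells over the 1403 genes with at least 50 UMIs in both sums together. A gene was counted as higher or lower where its CPM differed by at least 1.5-fold in the summed cells. By this rule 293 genes (20.9%) were higher in PyMT and 44 (3.14%) lower, and the median log2 ratio was 0.19. Without the 2 PyMT cells over 15000 UMIs, 247 of 1307 genes were higher (18.9%) and 52 lower (3.98%), and the median was 0.14. Among the 1070 genes that were not neutrophil-high, 193 were higher (18%) and 41 lower (3.83%). The excess of higher genes moved with the scaling. Ribosomal protein transcripts took 41.8% of UMIs in PyMT and 47.8% in WT S100-low T cells, and median-of-ratios scaling, which shifted the median gene by -0.18, gave 194 higher and 112 lower.

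CD8-associated and cytotoxic genes were lower in PyMT. All 8 genes of the CD8 lineage list that reached 50 UMIs were at least 1.5-fold lower (6 of them without the 2 large cells). Over all genes 3.14% were lower, or 3.98% without the 2 large cells. The median log2 ratio of the CD8 lineage list was -0.88, beside 0.19 over all genes. The makeup of the coreceptor classes differed alongside this list, since CD8 cells were 23% of PyMT and 51.9% of WT S100-low T cells, and Cd8a and Cd8b1 define the class. Nkg7, a cytotoxic granule protein gene, had 170 UMIs in PyMT and 133 in WT, a log2 ratio of -0.99 (95% interval -1.33 to -0.65) and -1.36 without the large cells. It was present in 22.2% of PyMT and 57.4% of WT cells, and in 4.25% of PyMT and 5.08% of WT neutrophils. Klrd1, the CD94 chain of NK-type receptors, stood at 29 UMIs in PyMT and 28 in WT (-1.30, -2.10 to -0.49). Ctsw, a cathepsin of cytotoxic cells, stood at 30 UMIs in each library (-1.35, -2.13 to -0.57). The PyMT sums come from more cells, so equal UMIs mean a lower level there.

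Within the CD8 class the differences were smaller for most of these genes. With the granule-rich cell left out, 30 PyMT and 28 WT CD8 cells gave log2 ratios of -0.40 for Nkg7 (-0.80 to 0.00), -0.58 for Klrd1 (-1.69 to 0.49), -0.21 for Ctsw (-1.14 to 0.72) and 0.41 for Cd8a (-0.17 to 1.00). All 4 intervals include 0. Nkg7 was present in 24 of 31 PyMT (77.4%) and 25 of 28 WT (89.3%) CD8 cells, and in 1 of 41 PyMT and 2 of 9 WT CD4 cells. A lower level within the CD8 class was found for Ctla2a, a cathepsin inhibitor gene of activated lymphocytes, and for Dapl1, a gene of naive and stem-like T cells. Ctla2a had 6 UMIs in 5 PyMT and 47 UMIs in 12 WT CD8 cells (-3.11, -4.63 to -1.88). Dapl1 had 27 UMIs in 11 PyMT and 66 UMIs in 21 WT CD8 cells (-1.43, -2.13 to -0.76). Over all S100-low T cells, Ctla2a stood at 60.5 CPM in PyMT and 289 CPM in WT (-2.25, -2.92 to -1.61).

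The wider list of memory, effector and cytotoxic genes was mixed. It had 12 measured members, of which 1 was higher and 6 were lower, and its median log2 ratio was -0.44. Over all genes 20.9% were higher and 3.14% lower. Without the WT cell of 11315 UMIs 4 members were higher and 5 lower, and the list median was -0.10. Over all 1383 genes measured without that cell, 339 were higher and 49 lower. Lgals1, which encodes the lectin galectin-1, had 194 UMIs in 61 PyMT cells and 153 UMIs in 25 WT cells (-1.005, -1.32 to -0.69), but 70 of the WT UMIs came from the WT cell of 11315 UMIs, and the ratio without it was -0.20 (-0.58 to 0.19). Ly6c2, which encodes Ly6C, had 209 UMIs in PyMT and 141 in WT (-0.78, and -1.24 without the large cells). S100a4, a calcium-binding protein gene of memory cells, was the higher member, with 105 UMIs in 28 PyMT cells and 14 UMIs in 6 WT cells (1.56), but its ratio was -0.26 after thinning. Crip1, another gene of memory cells, had 773 UMIs in PyMT and 286 in WT (0.09).

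**Figure D4:**
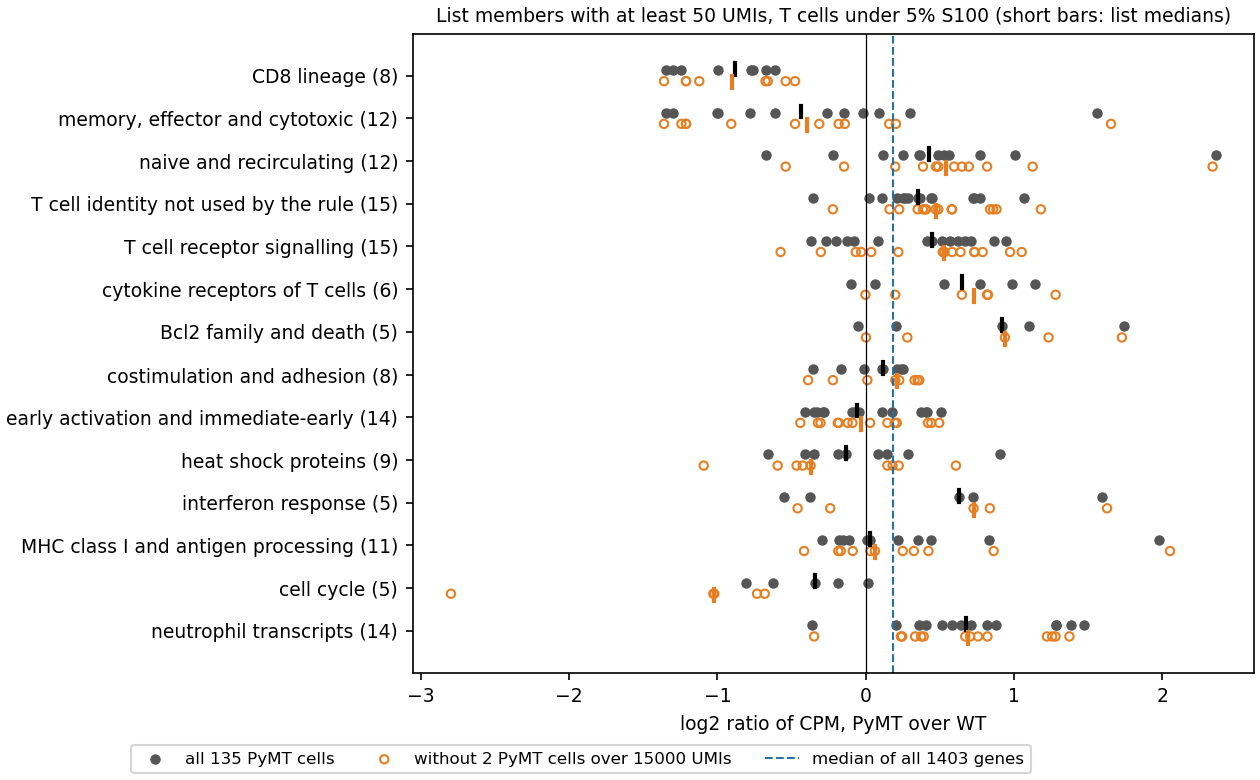
Each point is the log2 ratio of CPM, PyMT over WT, of 1 gene with at least 50 UMIs in S100-low T cells, by list; filled points use all 135 PyMT cells and open points leave out the 2 over 15000 UMIs, short bars are list medians and the dashed line is the median of all 1403 genes. The CD8 lineage list has its median at -0.88, and Bcl2 family and cytokine receptor genes have theirs at 0.92 and 0.65. Over the alternative settings the Bcl2 family median ranged between 0.29 and 1.09. With a minimum of 20 UMIs the cytokine receptor median was -0.14.

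Ccl5, a chemokine made by memory CD8 T cells and NK cells, was concentrated in few cells. The gene lies on the minus strand of chromosome 11 at 83525778 to 83530518 (GRCm38). It had 486 UMIs in 12 of 135 PyMT cells (8.89%) and 292 UMIs in 19 of 54 WT cells (35.2%), with 919 CPM in PyMT and 1404 CPM in WT (log2 ratio -0.61, -0.82 to -0.40). That ratio was -0.48 without the 2 large PyMT cells and -0.02 after thinning, under 1.5-fold in both. Among neutrophils 4.60% in PyMT and 4.29% in WT had a UMI. Thinned to 2500 UMIs, Ccl5 was present in 8.89% of PyMT and 29.6% of WT S100-low T cells. The libraries thus differed more in how many T cells carried Ccl5 than in its summed level.

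Ccl5-positive cells fell mostly outside the CD4 class. None of 41 PyMT CD4 cells had a UMI (exact 95% interval 0 to 8.6%), while 2 of 9 WT CD4 cells held 23 UMIs. In the CD8 class 6 of 31 PyMT cells (19.4%, 7.45 to 37.5) held 191 UMIs and 12 of 28 WT cells (42.9%, 24.5 to 62.8) held 173 UMIs. In cells with neither coreceptor, 6 of 62 PyMT cells held 295 UMIs and 5 of 17 WT cells held 96 UMIs. The highest cell carried 158 UMIs in PyMT and 65 UMIs in WT, both with neither coreceptor. Cells with at least 5 Ccl5 UMIs numbered 9 in PyMT, which held 480 of its UMIs, and 13 in WT, which held 283. Within the CD8 class the summed ratio without the granule-rich cell was near 0, with an interval of -0.30 to 0.31. That interval covers counting error only and not the spread between cells. The highest CD8 cell held 75 of the 191 UMIs in PyMT and 54 of the 173 in WT.

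**Figure D5:**
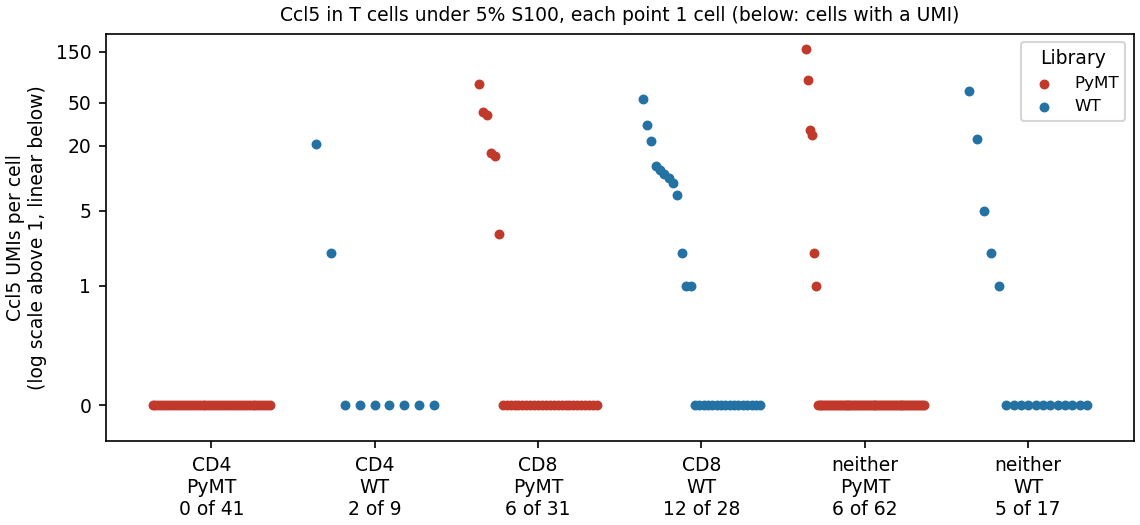
Each point is the Ccl5 UMI count of 1 S100-low T cell (log scale above 1, linear below), by coreceptor class in PyMT and WT, with the number of cells that had a UMI under each class. In the CD8 class 6 of 31 PyMT and 12 of 28 WT cells had any Ccl5, and no PyMT CD4 cell did.

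Of 12 measured genes of naive and recirculating T cells 3 were higher in PyMT, among them Igfbp4 and the rule gene Lef1, and 1, Dapl1, was lower. With all cells these shares were near the 20.9% higher and 3.14% lower over all genes. Without the large cells 6 of the 12 were higher and none lower, beside 18.9% and 3.98% over all genes. The list's median log2 ratio was 0.42, or 0.54 without the large cells, and Dapl1 was then at -0.54, under 1.5-fold. Igfbp4, an insulin-like growth factor binding protein gene of naive T cells, had 274 UMIs in 74 PyMT cells and 21 UMIs in 11 WT cells, or 518 CPM in PyMT and 101 CPM in WT (2.36, 1.72 to 3.07). B cells held 3.1 CPM in PyMT and 7.1 CPM in WT, and neutrophils held 24.4 CPM in PyMT and 108 CPM in WT, so the WT T cell level was at that of WT neutrophils. Lef1, a gene of the T cell rule, had 194 UMIs in PyMT and 38 in WT. Il7r had 198 UMIs in PyMT and 54 in WT (0.53, 0.09 to 0.99). Klf2, a transcription factor that keeps T cells circulating, had 425 UMIs in PyMT and 130 in WT (0.36, 0.08 to 0.66), and Ccr7, the lymph node homing receptor gene, 90 in PyMT and 24 in WT (0.56).

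The ratio of Igfbp4 had the same sign in each coreceptor class. In CD4 cells it had 112 UMIs in PyMT and 2 in WT (3.37, 1.48 to 6.43), and in CD8 cells without the granule-rich cell 23 UMIs in PyMT and 11 in WT (0.92, -0.17 to 2.11). In cells with neither coreceptor and without the large cell, 61 PyMT cells held 111 UMIs of Igfbp4 and 17 WT cells held 8 (2.16). In that class Tcf7, a transcription factor of naive and memory cells, had 69 UMIs in PyMT and 9 in WT (1.31), and Il7r 110 in PyMT and 15 in WT (1.24), whereas Lgals1 had 104 in PyMT and 97 in WT (-1.53) and Stmn1, a tubulin regulator of dividing cells, 9 in PyMT and 34 in WT (-3.55). The ratios of this class keep the WT cell of 11315 UMIs, which held 70 of these WT Lgals1 UMIs and 31 of the WT Stmn1 UMIs. The low Lgals1 and Stmn1 ratios thus rest largely on that cell. Its UMIs also enter the WT total behind the Igfbp4, Tcf7 and Il7r ratios. Ratios of this class without it were not computed.

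The Bcl2 family and death list had 3 of 5 measured members higher in PyMT and none lower (median 0.92), beside 20.9% higher over all genes. Over the alternative settings this list median ranged between 0.29 and 1.09. Bcl2, which blocks mitochondrial cell death, had 284 UMIs in 95 PyMT cells and 52 UMIs in 28 WT cells, or 537 CPM in PyMT and 250 CPM in WT (1.10, 0.67 to 1.56). The same gene was 0.52 higher on the log2 scale in PyMT B cells than in WT B cells. Within the classes its log2 ratio was 2.38 in CD4 cells (0.79 to 4.69), 1.01 in CD8 cells (0.38 to 1.67) and 1.20 in cells with neither (0.48 to 2.0), the last 2 without the large cells. Casp8, an initiator of receptor-driven death, had 51 UMIs in PyMT and 6 in WT (1.74, 0.52 to 3.25). Tsc22d3, the glucocorticoid-induced leucine zipper gene, had 173 UMIs in 81 PyMT cells and 17 UMIs in 13 WT cells (2.0, 1.28 to 2.81), and in B cells its log2 ratio was 0.92.

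Of 6 measured cytokine receptor genes 3 were higher and none lower (median 0.65). With a minimum of 20 UMIs, which lets in more members of that list, its median was -0.14. The higher members included Il4ra, the interleukin-4 receptor alpha chain, with 45 UMIs in PyMT and 8 in WT (1.14), and Ifngr1, the interferon-gamma receptor chain, with 101 in PyMT and 20 in WT (0.99, and 0.33 after thinning). Of 15 measured T cell receptor signalling genes 5 were at least 1.5-fold higher and none lower (median 0.45). Lck had 222 UMIs in PyMT and 61 in WT (0.52, 0.10 to 0.95), under 1.5-fold. The 15 measured T cell identity genes outside the rule had 4 higher and none lower (median 0.35), led by the membrane protein gene Ms4a4b with 64 UMIs in PyMT and 12 in WT (1.07, 0.17 to 2.09, and 0.30 after thinning). Beside these counts, 20.9% of all genes were higher, so the identity share was near that of all genes.

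Interferon-response genes had 3 of 5 measured members higher and none lower (median 0.63), beside 20.9% higher over all genes. Over the alternative settings this list median ranged between 0.26 and 0.73. Relative to the median of all genes it lay between 0.02 and 0.59, so in some settings the list was at the level of all genes. 2 of the 5 were also neutrophil-high, among them Ifitm3, a membrane protein gene of this response, with 100 UMIs in PyMT and 13 in WT (1.60). Ifi27l2a had 277 UMIs in PyMT and 66 in WT (0.72, 0.33 to 1.13). Its ratio was 1.44 without the WT cell of 11315 UMIs, 0.47 after thinning and 0.33 in cells with 0 UMIs of the B, NK and monocyte genes, the last 2 under 1.5-fold. Slfn2, a gene of T cell quiescence, had 118 UMIs in PyMT and 30 in WT (0.63), and 0.45 under median-of-ratios scaling. MHC class I and antigen processing genes had 2 of 11 higher and none lower (median 0.03), and Tap2, a subunit of the peptide transporter, had 50 UMIs in PyMT and 5 in WT (1.97, 0.66 to 3.66). Glycolysis genes had 3 of 7 higher and none lower (median 0.55), and all 7 are also abundant in the neutrophils of these libraries.

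With all cells, other programmes differed little or rested on single cells. Over all genes 20.9% were higher and 3.14% lower, or 18.9% and 3.98% without the 2 large PyMT cells. None of the 14 measured immediate-early genes, such as Fos and Junb, and none of the 8 measured costimulation and adhesion genes differed by 1.5-fold, with medians of -0.06 and 0.11. The 32 nuclear oxidative phosphorylation genes had 1 higher and 1 lower (median -0.18), and the 82 cytosolic ribosomal protein genes also had 1 higher and 1 lower (median -0.19). Without the 2 large PyMT cells, oxidative phosphorylation genes had 1 higher and 4 lower (median -0.23). Ribosomal protein genes then had 1 higher and 2 lower (median -0.16). Heat shock genes had 1 of 9 higher and 1 lower: Hspa5, the chaperone of the endoplasmic reticulum, with 81 UMIs in PyMT and 17 in WT (0.91), and Hspe1, a mitochondrial chaperone, with 211 in PyMT and 131 in WT (-0.66). Without the 2 large PyMT cells 1 heat shock gene was higher and 2 were lower, and the median moved from -0.14 to -0.37. Cell-cycle genes had none of 5 higher and 2 lower (median -0.34), and all 5 were lower without the 2 large PyMT cells (median -1.02). Without the WT cell, which held 332 of the 693 WT UMIs of that list, 2 were higher and none lower (median 0.57), and without all 3 large cells none differed by 1.5-fold (median -0.17). Over all 1383 genes measured without the WT cell, 339 were higher and 49 lower. Over all 1272 genes measured without the 3 cells, 272 were higher and 41 lower.

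Neutrophil transcripts were found in S100-low T cells at low levels, and more of them in PyMT. Of 14 measured neutrophil genes, which include the split genes S100a8 and S100a9, 8 were higher in PyMT and none lower (median 0.67). S100a8 and S100a9 were among the 8, and as they chose the cells their part in this count is a description. Over all genes 20.9% were higher and 3.14% lower. S100a8, which the split used, stood at 8474 CPM in PyMT and 4617 CPM in WT T cells, at 216305 CPM in PyMT and 204868 CPM in WT neutrophils, and at 8774 CPM in PyMT and 5078 CPM in WT B cells. The median share of S100a8 and S100a9 was 1.29% in PyMT and 0.760% in WT T cells, and 1.38% in PyMT and 0.763% in WT B cells, so that both lymphocyte types carried about the same amount in each library. Camp, which encodes the granule peptide cathelicidin, had 12.7 UMIs per 100 S100a8 UMIs in PyMT and 30.0 in WT T cells. The same ratio was 15.0 in PyMT and 34.7 in WT neutrophils, and 13.4 in PyMT and 30.6 in WT B cells.

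Some transcripts of this kind had large PyMT over WT ratios among T cells. Elane, Prtn3 and Mpo had larger ones, but rest on the granule-rich PyMT cell. Wfdc17 had 275 UMIs in 104 of 135 PyMT cells and 6 UMIs in 1 of 54 WT cells (4.17, 3.03 to 5.63). Ifitm1, whose membrane protein is induced by interferon, had 251 UMIs in 88 PyMT cells and none in WT, which puts the log2 ratio at 5.04 or more when WT is set to a floor of 3 counts over its sum. Ifitm2, of the same family, had 190 UMIs in PyMT and 12 in WT (2.64, 1.80 to 3.62), and Socs3, a feedback inhibitor of cytokine signalling, 53 in PyMT and 3 in WT (2.80, 1.17 to 5.12). B cells of the same libraries showed log2 ratios of 3.76 for Wfdc17, 5.34 for Ifitm1, 2.01 for Ifitm2 and 2.63 for Socs3. Per 100 S100a8 UMIs, Ifitm1 stood at 5.60 in PyMT T cells, 9.07 in PyMT B cells and 1.38 in PyMT neutrophils, and Socs3 at 1.18 in PyMT T cells, 0.83 in PyMT B cells and 0.06 in PyMT neutrophils. Relative to S100a8 both transcripts were thus more abundant in both lymphocyte types than in neutrophils, but this was not particular to them. Wfdc17 stood at 6.13 in PyMT T cells, 10.7 in PyMT B cells and 2.6 in PyMT neutrophils per 100 S100a8 UMIs. Fcer1g, which is also abundant in neutrophils, stood at 3.28, 4.17 and 1.19 in the same order. Among transcripts that went the other way were Camp, given above, and Ltf. The Ltf values were 3.86 in PyMT T cells, 3.98 in PyMT B cells and 4.22 in PyMT neutrophils. The part of free neutrophil RNA in these values was not tested.

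The stained surface proteins differed in their transcripts. Ptprc, which encodes CD45, was present in 71.1% of PyMT and 85.2% of WT T cells, and Cd84 in 33.3% of PyMT and 24.1% of WT T cells. Ly6c2 was present in 36.3% of PyMT and 55.6% of WT T cells. Itgam was sparse. It had 9 UMIs in PyMT and 1 in WT, and was present in 5.93% of PyMT and 1.85% of WT T cells, against 74.3% of PyMT and 84.4% of WT neutrophils. Ly6g, the granulocyte antigen bound by anti-Gr1, was present in 15.6% of PyMT and 9.26% of WT T cells, in 15.0% of PyMT and 17.4% of WT B cells, and in 89.2% of PyMT and 97.2% of WT neutrophils. The Ly6g share of T cells was close to that of B cells in PyMT and below it in WT.

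Markers of B cells, NK cells and monocytes were also counted in the S100-low T cells. Of 16 B cell genes 4 reached 50 UMIs and all were higher in PyMT, beside 20.9% higher over all genes. The list summed to 1701 CPM in PyMT and 414 CPM in WT. Without the 2 large cells 1 of the 4 was higher and 2 were lower, beside 18.9% and 3.98% over all genes. The median log2 ratio of the 4 was then -0.48, against 2.69 with all cells. H2-Aa, with 217 UMIs in PyMT and 8 in WT, turned to -1.21. The 16 NK cell genes summed to 873 CPM in PyMT and 616 CPM in WT T cells, against 23877 CPM in PyMT and 23120 CPM in WT NK cells. Of the 16, 5 were at 0 in PyMT and 9 in WT T cells, with Klra8, Klra9, Klri2 and Itga2 at 0 in both. Of the 3 that reached 50 UMIs, Fcer1g (1.68) and Tyrobp (1.07), receptor adaptor genes that are also abundant in neutrophils, were higher in PyMT, and Txk (-0.75), a kinase gene of T and NK cells, was lower. The 16 monocyte genes summed to 758 CPM in PyMT and 1101 CPM in WT T cells. Ly6c2, which CD8 T cells of these libraries also carried, is among the 16 and gave 395 CPM in PyMT and 678 CPM in WT.

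Several defining genes of regulatory, exhausted and late effector T cells were sparse. Foxp3, the transcription factor of regulatory T cells, on the plus strand of chromosome X at 7573644 to 7595245 (GRCm38), had 12 UMIs in 8 of 135 PyMT cells (5.93%) and none in 54 WT cells (exact 95% interval 0 to 6.60%). Neutrophils had it in 0.02% of PyMT and 0.03% of WT cells. Of the 8 cells, 2 were in the CD4 class and 6 had neither coreceptor. A difference between the libraries was not detectable at this depth. Tnfrsf18, a receptor of regulatory and activated cells, had 74 UMIs in PyMT and 24 in WT (0.28). Of 15 inhibitory receptor and exhaustion genes only Vsir, which is also abundant in neutrophils, reached 50 UMIs, with 76 in PyMT and 17 in WT (0.81). Pdcd1, which encodes PD-1, had 2 UMIs in PyMT and 0 in WT, Ctla4 11 in PyMT and 4 in WT, Lag3 0 in PyMT and 1 in WT, and Havcr2 none in either. The granzyme genes Gzma and Gzmb had 2 and 1 UMIs in PyMT and none in WT, and Ifng had 5 UMIs in each library. Klrg1, a receptor of late effector cells, had 20 UMIs in 5 PyMT cells and none in WT cells.

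CD4 and CD8 T cells of the same library differed by the genes of their classes. Over 853 measured genes, 47 were at least 1.5-fold higher in CD4 than in CD8 cells in both libraries (5.51%) and 19 were lower in both (2.23%). Without the large cells 43 were higher and 14 lower, of 768. Cd4, Cd8a and Cd8b1 made the classes and are among them. Genes at 0 UMIs in a class entered these counts at the floor of 3 counts. With only 9 WT CD4 cells that floor is a high level, which raises ratios of CD4 over CD8 in WT. For example, Itgb7 had 0 UMIs in CD4 and 16 in CD8 cells of WT, and its ratio was only -0.34. The counts can thus hold higher genes without a UMI in WT CD4 cells and miss lower ones. Izumo1r, the folate receptor family gene of CD4 T cells, had 40 UMIs in CD4 and 4 in CD8 cells of PyMT, and 10 in CD4 and 4 in CD8 cells of WT, for log2 ratios of CD4 over CD8 of 3.41 in PyMT (1.94 to 5.35) and 3.40 in WT (1.60 to 5.52). Ifi27l2a, with ratios of 1.99 in PyMT and 2.49 in WT, and S100a6, a calcium-binding protein gene of memory cells, with 1.64 in PyMT and 2.07 in WT, were also higher in CD4 cells. Cd28, the main costimulatory receptor gene, stood at 1.35 in PyMT and 1.66 in WT, and the immediate-early gene Fos at 1.30 in PyMT and 1.53 in WT.

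CD8 cells carried the cytotoxic and Ly6C genes. Nkg7 had 1 UMI in CD4 and 147 in CD8 cells of PyMT, and 5 in CD4 and 116 in CD8 cells of WT, for log2 ratios of CD4 over CD8 of -7.11 in PyMT (-12.4 to -4.61) and -2.46 in WT (-4.11 to -1.20). Ly6c2 stood at -2.95 in PyMT, or -2.36 without the granule-rich cell, and at -1.72 in WT, and Cst7, an inhibitor of granule cathepsins, at -2.72 in PyMT and -0.86 in WT. Plac8 stood at -3.14 in PyMT and -1.51 in WT, but its PyMT ratio was -0.53 without the granule-rich cell. Ccl5 had no UMI in CD4 and 191 in CD8 cells of PyMT, a ratio of at most -5.91 against the floor of 3 counts, and stood at -0.84 in WT. Cd40lg, the helper ligand that CD4 cells show to B cells, was too sparse for the list, with 14 UMIs in PyMT and 5 in WT S100-low T cells, and none of them in CD8 cells of either library.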

How the data were processed

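The authors deposited a matrix of raw UMI counts per gene and cell for each library, 27998 gene rows, made with 10x 3′ version 2 chemistry at about 48488 reads per cell, per the labels. Cell Ranger 2.1.0 and the mm10 build are named in the submitters' processing notes; the filter on cells before deposit is not given in these sources. Cells under 200 genes or over 10% mitochondrial UMIs were left out. UMI counts were summed over the T cells of each library, divided by the summed total as CPM, and compared as log2 ratios with exact conditional binomial intervals at 95%; shares have Clopper-Pearson intervals. A group at 0 was set to a floor of 3 counts over the group. Genes needed 50 UMIs in both sums; called means 1.5-fold. Replicate tests were not possible with 1 library for each condition. Named genes were the 12 highest and 12 lowest by the interval bound nearest 0, the 10 and 10 among genes not neutrophil-high, up to 4 of each list, and for CD4 over CD8 the 8 highest and 8 lowest by the smaller ratio; ribosomal, mitochondrial, antigen receptor and unnamed genes were left out. Other named genes, and the values within classes, the cells over 10000 or 15000 UMIs and the ratios per 100 S100a8 UMIs, were chosen after their values were seen. The rule for T cells and the gene lists were chosen with earlier results of these data known, and the list of 11 neutrophil genes that differ between the libraries was picked on these libraries. Doublets were kept; simulated-doublet scoring at an assumed 0.8% per 1000 cells marked 671 PyMT and 241 WT cells, left out as an alternative. Thinning drew 2500 UMIs per cell (seed 1). On simulated counts for 1403 genes, the direction of the PyMT over WT comparison was recovered for 52% of genes changed 1.5-fold. It was recovered for 82% at 2-fold, 98% at 3-fold and 100% at 4-fold (50 genes each). Intervals held the truth for 96.0% of 1203 unchanged genes. The simulated sums had counting error only, as the intervals assume, and no clustering of UMIs in single cells. These rates therefore need not hold for the real counts. Python 3.11.15, numpy 2.4.6, pandas 2.3.3, scipy 1.17.1 and scikit-learn 1.9.0 were used. Gene positions are from GENCODE M21 on GRCm38, the assembly behind mm10.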

Additional observations from a re-analysis of the deposited data

How the results depend on the processing

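No paired analysis was possible because each condition has 1 library and the labels give no shared replicate numbers. Of 100 recomputed shares and counts 85 stayed within their limits, and 15 moved. Requiring 0 UMIs of B, NK and monocyte genes gave T cell shares of 1.43% in PyMT and 0.856% in WT, and 163 genes higher. The S100-high share was 10.6% in PyMT without doublet-like cells, and after thinning 12.8% in PyMT and 6.67% in WT. Thinning gave 148 genes higher. Median-of-ratios scaling gave 194 higher and 112 lower, trimmed-mean scaling 86 lower, and totals without the 50 most abundant genes 80 lower. A minimum of 20 UMIs gave 953 higher and 232 lower, and 200 UMIs 47 higher and 11 lower. Among calls, 86.9% were higher as reported, 63.4% under median-of-ratios and 72.3% under trimmed-mean scaling. The causes were not tested.

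Of 446 list medians 415 stayed, 29 moved and 2 reversed: the split genes to -0.049 with 0 other-lineage UMIs and cytokine receptors to -0.14 at 20 UMIs. Of 1828 values of named genes 1728 stayed, 89 moved and 11 reversed. H2-Aa reversed to -1.35 at 3 T cell UMIs and to -1.21 without the 2 large PyMT cells and -1.29 without all 3 large cells. H2-Ab1 reversed to -1.21 at 3 T cell UMIs, to -0.87 with 0 other-lineage UMIs and to -1.21 without the large PyMT cells and -1.14 without all 3. Cd74 reversed to -0.079 with 0 other-lineage UMIs and to -0.14 after thinning, S100a4 to -0.26 after thinning, and Stmn1 to 1.04 without the WT cell of 11315 UMIs. Ratios ranged over the alternatives between 2.17 and 2.42 for Igfbp4, 0.92 and 1.43 for Bcl2, -2.43 and -1.45 for Ctla2a, and -1.18 and -0.02 for Ccl5. Median depths of 3436 and 3477.5 UMIs per PyMT and WT T cell and 9 WT CD4 cells limit what can be seen of sparse transcripts. Alternatives that leave out cells over 10000 or 15000 UMIs were added after seeing the data.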
